A study of Mus musculus with 6 samples.

Results

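The p53 pathway was examined in cultured calvarial preosteoblasts, the precursors of bone-forming osteoblasts, as 31 named genes in a table of 17001 rows. The members were taken by their gene symbols, and all 31 were found. They comprise *Trp53* itself, its inhibitors and feedback genes, and targets that act in cell cycle arrest, apoptosis, DNA repair and stress metabolism.

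The 6 libraries came from cells of the calvaria of 3-day-old mice, grown in α-MEM with fetal bovine serum. Control cells (3 libraries) were NELL2 fx/fx, homozygous for a floxed *Nell2* allele and without Cre. The cKO cells (3 libraries) had the genotype Col1-cre; NELL2 fx/fx, so both groups carried the floxed alleles and differed by the Cre transgene, which a *Col1a1* promoter fragment drives in cells of the osteoblast lineage. *Nell2* encodes a secreted glycoprotein with EGF-like repeats. The labels give neither the strain and sex of the pups nor whether replicates were separate animals. The p-values therefore measure the spread between these libraries, which may in part be technical.

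p53 is a transcription factor that is kept scarce by the ubiquitin ligase MDM2 and its relative MDM4, and that accumulates after DNA damage and other stress. Its targets halt the cell cycle, aid repair or trigger cell death, and several of them feed back to switch p53 off again. Much of this control acts on the protein, so the level of *Trp53* mRNA is a poor measure of p53 activity. In the osteoblast lineage p53 is known to restrain differentiation, and its loss is frequent in osteosarcoma.

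The authors deposited FPKM values (fragment counts scaled by transcript length and library size). Read numbers cannot be read back from them, and depth and counting error are unknown. Library sums ran from 573307 to 606428 FPKM, and libraries correlated across genes at 0.982 to 0.994 on the log2(FPKM + 1) scale. The deleted gene did not follow the labels: *Nell2* was at 3.17, 2.59 and 1.88 FPKM in control replicates 1, 2 and 3, and at 5.64, 1.61 and 5.74 FPKM in the libraries labelled cKO 1, 2 and 3. The log2 fold change of *Nell2*, 0.48, had a standard error of 0.37 and an adjusted p of 0.591 in limma, so directions below refer to the libraries labelled cKO. The paper reports the deletion in calvarial preosteoblasts by qRT-PCR and western blotting. One FPKM value per gene cannot show whether the floxed segment was lost. The osteoblast lineage markers *Col1a1*, *Runx2*, *Sp7* and *Alpl* were above 10 FPKM in every library. *Bglap* ranged from 1.2 to 8.61 FPKM and *Dlx5* from 4.32 to 13.4 FPKM. At an unadjusted p under 0.05 in limma, 4 of 10 lineage genes (*Ibsp*, *Sp7*, *Alpl* and *Bglap*) had lower values in the libraries labelled cKO. Over all tested genes 7.76% did, and 3 of the 10 lineage genes had positive log2 fold changes. Y-linked genes were expressed in 3 libraries, control 3 and labelled cKO 1 and 3, at a summed 49.57 to 54.74 FPKM, and summed to at most 0.29 FPKM in the other 3. The libraries of each group were therefore not all repeats of the same sample. In bulk samples, fewer cells of a type and less RNA per cell cannot be told apart.

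Promoter sequence is shown first for the 4 members whose windows carry a p53 motif and whose unadjusted p in the comparison of the groups was under 0.05. The p53 response element is built from copies of a decamer (the p53 decamer, RRRCWWGYYY in the degenerate code), which is its own reverse complement. Windows of 250 bases upstream of RefSeq start sites (GRCm38.p6) were found for 23 of the 31 members, in 32 windows. There was no entry for *Trp53inp1*, *Zmat3*, *Pmaip1*, *Tnfrsf10b*, *Perp*, *Ddb2*, *Xpc* and *Rrm2b*. The decamer occurred in 11 of the 32 member windows (34.4%), against 7.13% of all 32851 windows of the same length, in *Aen*, *Bax*, *Ccng1*, *Cdkn1a*, *Ei24*, *Gadd45a*, *Mdm2*, *Polk*, *Ppm1d*, *Sesn1* and *Trp53*. Members were listed as p53 targets to begin with, a match is a string of letters rather than a measured binding site, and many response elements lie outside such windows. The cell cycle element CHR (TTTGAA, either strand) was in 12.5% of member windows and 16% of all windows, and the CCAAT box (CCAAT, either strand) in 50% and 33.8%. The *Bax* decamer shares bases with a CHR match at position -193.

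The *Cdkn1a* and *Bax* windows are printed whole and those of *Gadd45a* and *Aen* as the decamer with 10 bases on each side, all in the direction of the gene, with the decamers in capitals. They lie at chr17:29090729-29090978 (plus strand), chr7:45466899-45467148 (minus strand), chr6:67037428-67037457 (minus strand) and chr7:78895927-78895956 (plus strand) of GRCm38.p6. Counted from the RefSeq start site of the window shown, the decamers begin at -73 and -51 in *Cdkn1a*, -40 in *Gadd45a*, -201 in *Bax* and -121 in *Aen*. *Cdkn1a* and *Aen* each have a further window, of another start site (chr17:29093519-29093768 and chr7:78895677-78895926), with 0 decamers. The *Gadd45a* and *Aen* stretches lie within exon sequence in GENCODE M21.
Cdkn1a: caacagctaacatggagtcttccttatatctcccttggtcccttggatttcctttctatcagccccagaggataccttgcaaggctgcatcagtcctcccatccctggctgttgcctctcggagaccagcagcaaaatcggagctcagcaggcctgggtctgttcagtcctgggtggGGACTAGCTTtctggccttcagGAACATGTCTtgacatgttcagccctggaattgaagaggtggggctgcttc
Bax: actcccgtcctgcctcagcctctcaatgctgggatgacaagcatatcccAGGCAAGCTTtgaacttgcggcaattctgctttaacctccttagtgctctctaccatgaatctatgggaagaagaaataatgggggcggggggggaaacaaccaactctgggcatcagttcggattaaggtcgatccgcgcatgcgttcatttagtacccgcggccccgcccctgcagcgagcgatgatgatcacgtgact
Gadd45a: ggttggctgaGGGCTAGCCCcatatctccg
Aen: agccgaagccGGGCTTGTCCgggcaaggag

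Rows were tested when 3 or more libraries reached 1 FPKM, which held for all 31 members and for 11590 of the 17001 rows. *Bax* had the highest mean over the 6 libraries, 145 FPKM, above 96.7% of the rows of the table, followed by *Cdkn1a* at 97.7 FPKM, *Phlda3* at 69.7 FPKM, *Trp53* at 62.7 FPKM and *Ccng1* at 62.1 FPKM. At the low end were *Tigar* at 1.97 FPKM, *Ddb2* at 2.23 FPKM, *Rrm2b* at 2.34 FPKM and *Gdf15* at 2.45 FPKM. Neighbours in this order, such as *Trp53* and *Ccng1*, were closer than their spread between libraries. The ratio of the highest to the lowest library was smallest for *Trp53* (1.15) and largest for *Gdf15* (6.45), *Cdkn1a* (2.25), *Gadd45a* (2.14) and *Perp* (2.1).

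The question of the comparison was which genes differ when *Nell2* is deleted in preosteoblasts. Across the 11590 genes, 0 (0%) passed 0.05 after Benjamini-Hochberg adjustment of limma p-values, so no member passed it either. At an unadjusted p under 0.05, limma called 1521 genes (13.1%), of which 622 (5.37% of those tested) had higher and 899 (7.76%) lower values in the libraries labelled cKO. Of the 31 members, 9 had such a p (29%). *Gadd45a*, *Plk2* and *Rrm2b* were higher, and *Cdkn1a*, *Psrc1*, *Zmat3*, *Tnfrsf10b*, *Aen* and *Bax* were lower in the libraries labelled cKO. The median log2 fold change of the members was -0.11, with 19 below and 12 above 0, beside a median of -0.02 over all tested genes. The 2 groups did not overlap for 8 members (25.8%), 5 with higher and 3 with lower values in the libraries labelled cKO, while 18.3% of all tested genes were apart, 6.51% higher and 11.8% lower.

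These counts rested on single libraries and on scaling. Without labelled cKO 1, 2 members (*Gadd45a* and *Psrc1*) and 324 of the 11590 genes had an adjusted p under 0.05 in limma. At the unadjusted p, 6 members were then higher and 9 lower, beside 9.29% and 11.9% of all genes. The 6 lower members became 1 without control 1, control 2 or labelled cKO 3, where 4.84%, 4.11% and 3.81% of all genes were lower. They became 2 without labelled cKO 2 (4.88% of all genes) and 11 without control 3 (7.32%). The members apart numbered 19 without control 3 and 20 without labelled cKO 1, where fewer values have to separate. The share of all tested genes apart was not computed for these settings, so these counts cannot be read as a result about the members. Median-ratio scaling between libraries left 3 members higher and 1 lower (*Psrc1*), with 6.81% of all genes higher and 6.01% lower at the unadjusted p.

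**Figure D1:**
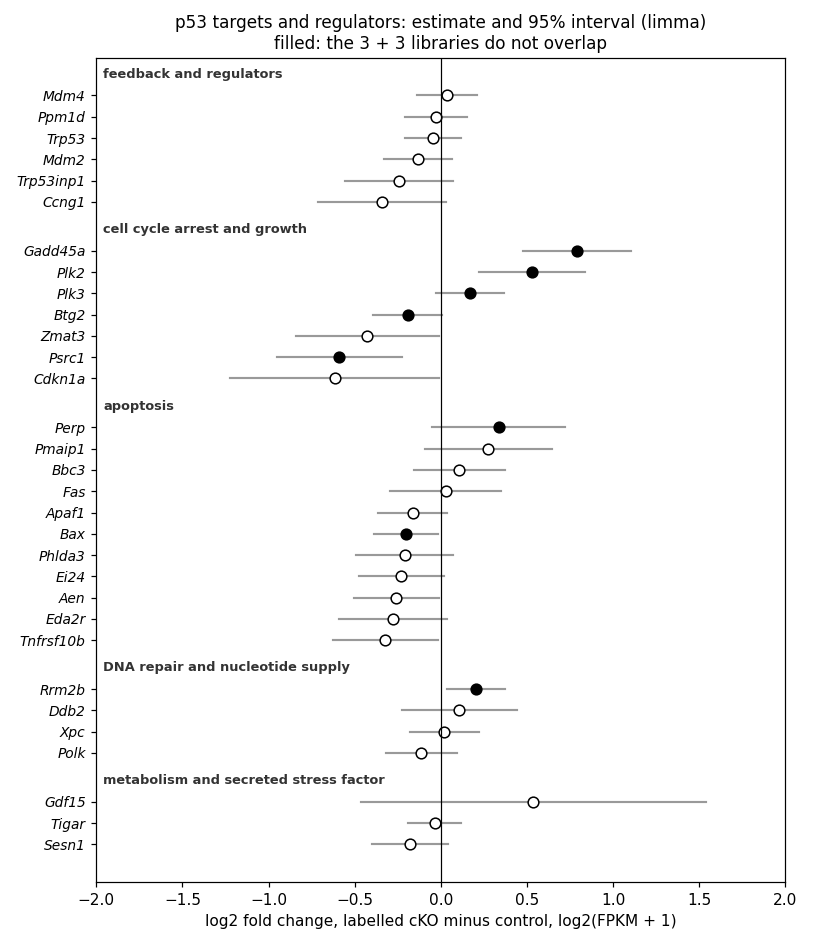
Log2 fold change of each p53 gene (labelled cKO minus control, on the log2(FPKM + 1) scale) with its 95% interval from limma, grouped by role; filled points are genes whose 3 control and 3 labelled cKO libraries do not overlap. *Gadd45a* lies at 0.79 and *Plk2* at 0.53 to the right, *Cdkn1a* at -0.62 and *Psrc1* at -0.59 to the left, while *Trp53*, *Mdm4* and *Ppm1d* sit within 0.05 of 0.

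The regulators of p53 differed little between the groups. *Trp53* was at 60.78, 67.19 and 63.13 FPKM in control 1, 2 and 3 and at 61.82, 58.53 and 64.57 FPKM in labelled cKO 1, 2 and 3. The groups overlapped, and the log2 fold change of -0.05 had a 95% interval of -0.21 to 0.12. *Mdm2*, the ubiquitin ligase that p53 induces and that degrades it, was at 19.34, 21.41 and 18.02 FPKM in controls and 18.62, 18.17 and 16.59 FPKM in the libraries labelled cKO (log2 fold change -0.13, interval -0.33 to 0.07). *Mdm4*, which blocks the activation domain of p53, ranged from 7.08 to 8.39 FPKM over the 6 libraries (log2 fold change 0.04), and *Ppm1d*, a phosphatase that reverses damage signalling, from 3.91 to 4.69 FPKM (log2 fold change -0.03). The signs of these last 2 estimates turned with single libraries left out.

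*Ccng1*, cyclin G1, which recruits phosphatase 2A to MDM2, was at 70.27, 79.13 and 58.87 FPKM in controls and 67.03, 49.53 and 47.88 FPKM in the libraries labelled cKO. Its log2 fold change was -0.34 (standard error 0.16, adjusted p = 0.406 in limma), and labelled cKO 1 lay among the controls. *Trp53inp1*, a stress protein that promotes p53 phosphorylation, had 8.7, 9.16 and 7.71 FPKM against 8.47, 7.13 and 5.72 FPKM, with the same library inside the control range (log2 fold change -0.24). Of the 6 regulators and feedback genes, 0 had an unadjusted p under 0.05 in limma, beside 13.1% of all tested genes.

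The arrest and growth genes had estimates on both sides of 0. Of 7 genes, 2 had higher and 3 lower values at the unadjusted p, beside 5.37% and 7.76% of all tested genes. The groups were apart for 5 of the 7, beside 18.3% of all tested genes. *Cdkn1a* encodes p21, the inhibitor of cyclin-dependent kinases that carries out most of the G1 arrest by p53. It lies on chromosome 17 of GRCm38 from 29090976 to 29100727 (plus strand, GENCODE M21). Its level was 133.53, 151.8 and 75.2 FPKM in control 1, 2 and 3 and 87.43, 70.99 and 67.33 FPKM in labelled cKO 1, 2 and 3. Controls 1 and 2 were high, and control 3 lay within the range of the libraries labelled cKO. The means were 120 ± 40 and 75.2 ± 10.7 FPKM (SD, n = 3), which gave a log2 fold change of -0.62 with a standard error of 0.26 and an adjusted p of 0.377 in limma. *Cdkn1a* is the member with a promoter window that holds a pair of p53 decamers. That window belongs to its upstream start site, and the window of its other start site holds 0.

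*Gadd45a*, a small stress-induced protein that slows entry into mitosis and is also a target of ATF4, showed the widest positive difference. It lies on chromosome 6 from 67035096 to 67037457 (minus strand). Its level was 29.69, 35.92 and 31.43 FPKM in controls and 46.47, 63.41 and 61.07 FPKM in the libraries labelled cKO. The lowest library labelled cKO exceeded the highest control, and the means were 32.3 ± 3.21 FPKM in controls and 57.0 ± 9.18 FPKM in the libraries labelled cKO (SD, n = 3). The log2 fold change was 0.79, with a standard error of 0.13 and an adjusted p of 0.312 in limma. Without labelled cKO 1, the lowest of its group, the adjusted p was 0.0191, and over all alternatives it ran from 0.0191 to 0.674. *Gadd45a* and *Cdkn1a*, both classical p53 targets, stood on opposite sides of 0.

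*Psrc1*, a microtubule-binding protein of the mitotic spindle that p53 is known to regulate, lies on chromosome 3 from 108383839 to 108388231 (plus strand). It was at 27.63, 28.52 and 21.65 FPKM in controls and 20.75, 15.47 and 14.72 FPKM in the libraries labelled cKO, with no overlap. Its log2 fold change was -0.59 (standard error 0.15, adjusted p = 0.312 in limma). The adjusted p was 0.0448 without labelled cKO 1, within a range of 0.0448 to 0.674 over the alternatives. *Psrc1* was the member that kept an unadjusted p under 0.05 with lower values in all alternatives run.

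The polo-like kinases lay on the side of *Gadd45a*. *Plk2* (chromosome 13 from 110395046 to 110400844, plus strand), which acts in centriole duplication and stress checkpoints, was at 28.32, 26.57 and 32.26 FPKM in controls and 36.51, 41.08 and 50.27 FPKM in the libraries labelled cKO. Its log2 fold change was 0.53 (standard error 0.13, adjusted p = 0.312 in limma), with no overlap. *Plk3*, a related stress kinase, was at 5.98, 6.84 and 7.22 FPKM against 7.28, 7.43 and 8.16 FPKM (log2 fold change 0.17). Its groups were narrowly apart.

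*Btg2*, an antiproliferative adaptor of the deadenylase complex, was at 16.29, 17.56 and 14.19 FPKM in controls and 13.85, 14.07 and 13.57 FPKM in the libraries labelled cKO. The groups were apart, and the log2 fold change was -0.19 (standard error 0.08, adjusted p = 0.389 in limma). *Zmat3*, an RNA-binding zinc finger protein and a p53 target in growth control, lies on chromosome 3 from 32334792 to 32366014 (minus strand). It had 13.21, 13.42 and 9.98 FPKM in controls and 11.35, 7.14 and 8.23 FPKM in the libraries labelled cKO. Control 3 was below labelled cKO 1, so the groups overlapped (log2 fold change -0.43, standard error 0.18, adjusted p = 0.374 in limma).

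**Figure D2:**
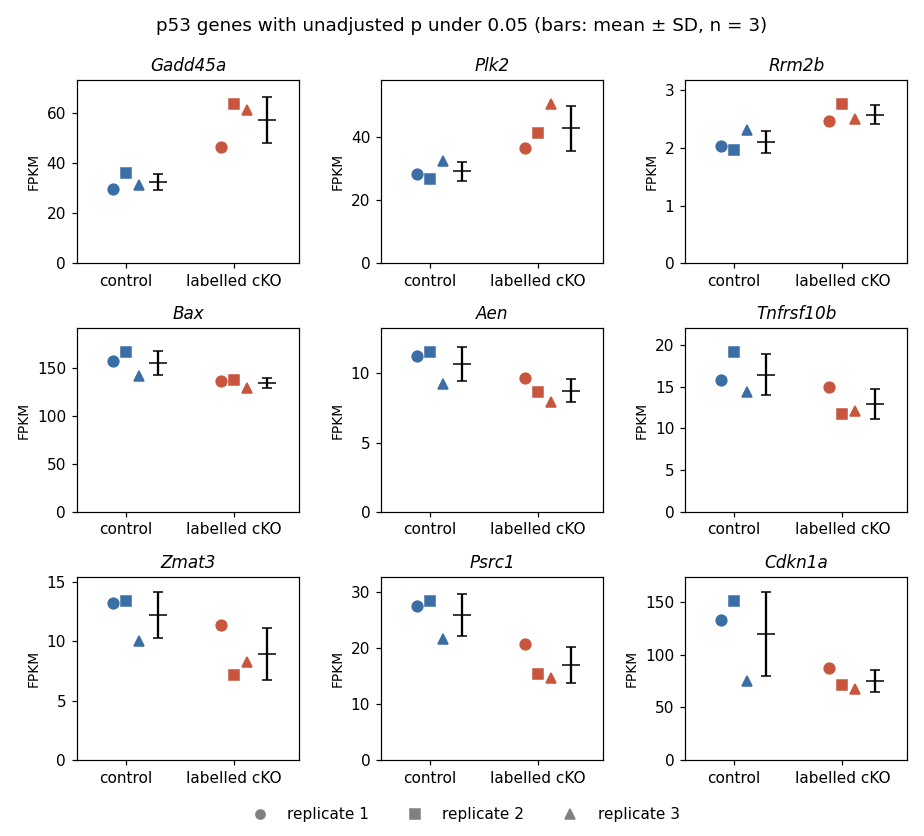
FPKM (vertical axes, starting at 0) of the 9 p53 genes with an unadjusted p under 0.05 in control libraries (blue) and libraries labelled cKO (red); symbols give the replicate and bars the mean ± SD (n = 3). *Gadd45a*, *Plk2* and *Rrm2b* are higher in all 3 libraries labelled cKO, *Psrc1* and *Bax* lower in all 3, and control 3 (triangle) is the lowest control for all 6 genes with lower values.

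Of 11 apoptosis genes, 3 had lower and 0 higher values at the unadjusted p, beside 7.76% and 5.37% of all tested genes. The median log2 fold change of the 11 was -0.20. *Bax*, the BCL2-family protein that permeabilizes the outer mitochondrial membrane, lies on chromosome 7 from 45461697 to 45466898 (minus strand). It was at 157.81, 166.57 and 141.75 FPKM in controls and 137.07, 137.64 and 129.08 FPKM in the libraries labelled cKO. The groups did not overlap, although the difference was small, with means of 155 ± 12.6 and 135 ± 4.79 FPKM (SD, n = 3) and a log2 fold change of -0.20 whose standard error was 0.08 and adjusted p 0.350 in limma. *Tnfrsf10b*, the mouse death receptor for TRAIL (chromosome 14 from 69767472 to 69784411, plus strand), was at 15.82, 19.14 and 14.32 FPKM against 14.95, 11.78 and 12.05 FPKM. Labelled cKO 1 was above control 3 (log2 fold change -0.32, standard error 0.13, adjusted p = 0.367). *Aen*, a nuclease induced by p53 during apoptosis (chromosome 7 from 78895854 to 78911209, plus strand), was at 11.26, 11.51 and 9.24 FPKM against 9.64, 8.65 and 7.94 FPKM. Again control 3 lay inside the other group (log2 fold change -0.26, standard error 0.10, adjusted p = 0.368).

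Other death genes with lower means had intervals that reached 0. They were *Eda2r*, an X-linked receptor of the TNF receptor family (-0.28), *Ei24*, a membrane protein of the endoplasmic reticulum (-0.23), *Phlda3*, which competes with AKT for membrane lipids (-0.21), and *Apaf1*, the scaffold of the apoptosome (-0.16), all as log2 fold changes. *Phlda3* was at 74.84, 84.01 and 65.9 FPKM in controls and 67.02, 70.4 and 56.32 FPKM in the libraries labelled cKO. The members that encode BH3-only proteins of mitochondrial death had estimates of the other sign. *Bbc3*, encoding PUMA, was at 8.98, 8.28 and 7.51 FPKM against 7.92, 10.51 and 8.6 FPKM, and *Pmaip1*, encoding NOXA, at 3.89, 4.92 and 3.24 FPKM against 6.22, 4.51 and 4.47 FPKM. Neither group pair was apart (log2 fold changes 0.11 and 0.28, intervals -0.16 to 0.37 and -0.09 to 0.64).

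*Fas*, the death receptor, ranged from 8.01 to 11.43 FPKM with no ordering by group (log2 fold change 0.03, interval -0.29 to 0.35). *Perp*, a tetraspan protein of desmosomes and p53 effector, was at 3.58, 3.73 and 2.94 FPKM in controls and 3.82, 6.17 and 3.97 FPKM in the libraries labelled cKO. The groups were narrowly apart, and labelled cKO 2 stood above the rest (log2 fold change 0.34, standard error 0.16, adjusted p = 0.423 in limma). Without labelled cKO 2 the log2 fold change was 0.15. *Perp* is abundant in epithelia, and epithelial markers also differed: 3 of 6 passed the filter, with a summed level of 0.46 to 13.39 FPKM in controls and 18.17 to 42.72 FPKM in the libraries labelled cKO. *Epcam*, which reached 1 FPKM in the libraries labelled cKO alone, was listed at 0 in control 1. *Krt14* was listed at 0 in controls 1 and 2 and *Krt5* in controls 1 and 3. The part of these markers in the *Perp* values was not tested.

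Of 4 DNA repair and nucleotide supply genes, all below 6 FPKM, 1 had higher and 0 had lower values at the unadjusted p in limma. Over all tested genes these shares were 5.37% and 7.76%. *Rrm2b*, the p53-inducible subunit of ribonucleotide reductase (chromosome 15 from 37923952 to 37961318, minus strand), was at 2.03, 1.96 and 2.32 FPKM in controls and 2.46, 2.76 and 2.51 FPKM in the libraries labelled cKO. The groups did not overlap, and the log2 fold change was 0.21 (standard error 0.07, adjusted p = 0.325 in limma). Its unadjusted p was above 0.05 without control 1, control 2 or labelled cKO 2. Its replicative counterpart *Rrm2*, which is active in S phase, had the opposite sign, at 26.83, 30.64 and 22.11 FPKM against 22.52, 11.48 and 11.88 FPKM (log2 fold change -0.81, adjusted p = 0.312). The damage recognition genes *Ddb2* (log2 fold change 0.11) and *Xpc* (0.02) and the translesion polymerase *Polk* (-0.11) each overlapped between the groups. For *Ddb2*, 23.8% of exon bases are shared with *Acp2* on the other strand, and whether the counting used strand is not given in the sources used here.

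Among the metabolic and secreted targets, *Gdf15* had the widest spread of all members. This stress cytokine was at 1.37, 1.49 and 1.93 FPKM in controls and 0.96, 6.19 and 2.75 FPKM in labelled cKO 1, 2 and 3. Labelled cKO 1 was the lowest and labelled cKO 2 the highest of the 6 libraries, and the interval of the log2 fold change of 0.54 ran from -0.46 to 1.54. The log2 fold change of *Gdf15* was 1.01 without labelled cKO 1 and 0.07 without labelled cKO 2. *Sesn1*, which restrains mTORC1, was at 12.75, 13.4 and 14.22 FPKM against 11.42, 13.36 and 10.6 FPKM (log2 fold change -0.18). *Tigar*, which lowers fructose-2,6-bisphosphate and so glycolysis, ranged from 1.78 to 2.1 FPKM (log2 fold change -0.04, interval -0.19 to 0.12). Of these 3 genes, 0 had an unadjusted p under 0.05 in limma, beside 13.1% of all tested genes.

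Exons shared with other annotated genes touch further members. The share of exon bases was 19.1% for *Gadd45a*, 7.68% for *Cdkn1a*, 8.04% for *Rrm2b* and 6.66% for *Ei24*, each with a gene on the opposite strand. For *Bax* it was 12.2%, with a gene on the same strand. Whether the counting used strand is not given, so part of these reads may not be assigned with certainty. None of these overlapping genes is a row of the table.

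**Figure D3:**
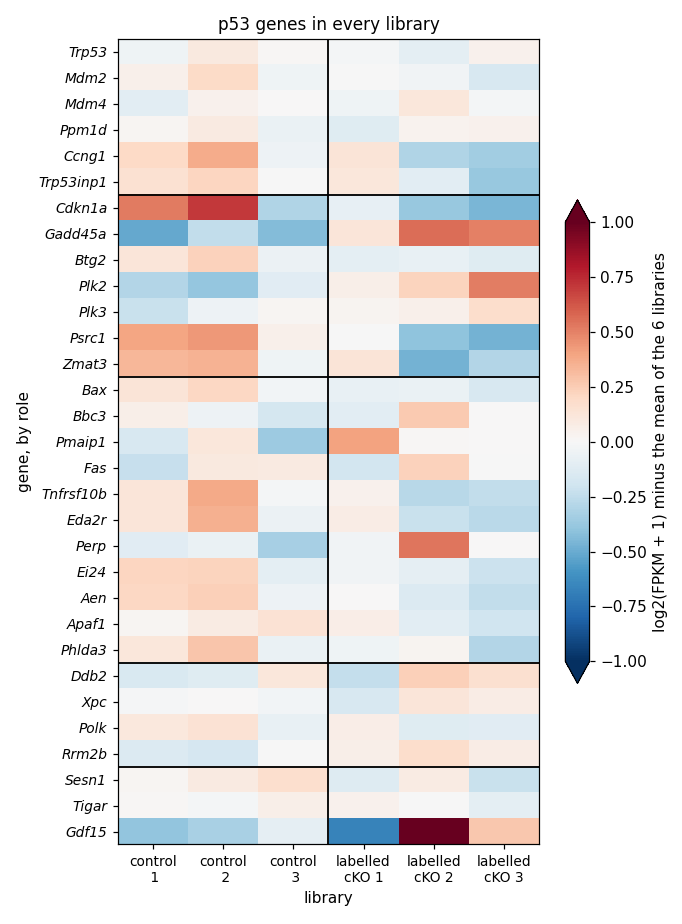
Each p53 gene (rows, by role) in each library (columns) as log2(FPKM + 1) minus the mean of the 6 libraries; red is above and blue below that mean, and the color ends at 1 and -1. Controls 1 and 2 are red for most feedback, arrest and apoptosis targets, control 3 is pale or blue for the same genes, and *Gdf15* in labelled cKO 2 exceeds the color range.

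Many members followed the same order within the control group, a pattern chosen after the values were seen. In 18 of 31 members (58.1%) control 2 was highest, control 1 next and control 3 lowest, while 19.8% of all tested genes had this order. These 18 included *Cdkn1a*, *Ccng1*, *Mdm2*, *Bax*, *Zmat3*, *Tnfrsf10b*, *Eda2r*, *Aen*, *Ei24*, *Phlda3*, *Trp53inp1*, *Btg2* and *Psrc1*, but not *Trp53* or *Gadd45a*. In the libraries labelled cKO, 11 members (35.5%) had replicate 1 highest and replicate 3 lowest, against 20.1% of all tested genes. Over all 6 libraries, 16 members had their highest value in control 2 and 14 their lowest in labelled cKO 3. The share of all tested genes with these extremes was not computed, so these counts cannot be read as a result about the members. The summed level of the 31 genes was 783, 854 and 676 FPKM in controls 1, 2 and 3 and 712, 698 and 664 FPKM in labelled cKO 1, 2 and 3.

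Control 3 was also the control library with Y-linked expression. Within the 3 libraries without it (control 1, control 2 and labelled cKO 2), the log2 difference of *Cdkn1a* was -0.99. It was 0.03 within the 3 with it (labelled cKO 1 and 3 and control 3). *Zmat3* gave -0.81 and -0.04, and *Ccng1* -0.58 and -0.05 in the same order. *Gadd45a* kept a positive difference in both, 0.94 and 0.74, as did *Plk2* at 0.57 and 0.40, and *Psrc1* a negative one, -0.82 and -0.29.

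Of the 31 members, 13 were lower and 7 higher in both subsets and 11 differed in sign. Over all tested genes, 56.5% had the same sign in both. One group had a single library in each subset, so these values are a description. A limma fit of the difference between the subsets rests on the same single libraries, so no conclusion is drawn from it. When limma adjusted for Y-linked expression, *Gadd45a* and *Plk2*, higher, and *Psrc1*, lower, kept an unadjusted p under 0.05. *Perp* gained one (log2 fold change 0.46), *Rrm2b*, *Cdkn1a*, *Zmat3*, *Tnfrsf10b*, *Aen* and *Bax* lost theirs, and 4.89% of all genes were higher and 5.63% lower. With 1 control and 2 libraries labelled cKO carrying Y-linked expression, its part in these values was not tested beyond this.

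**Figure D4:**
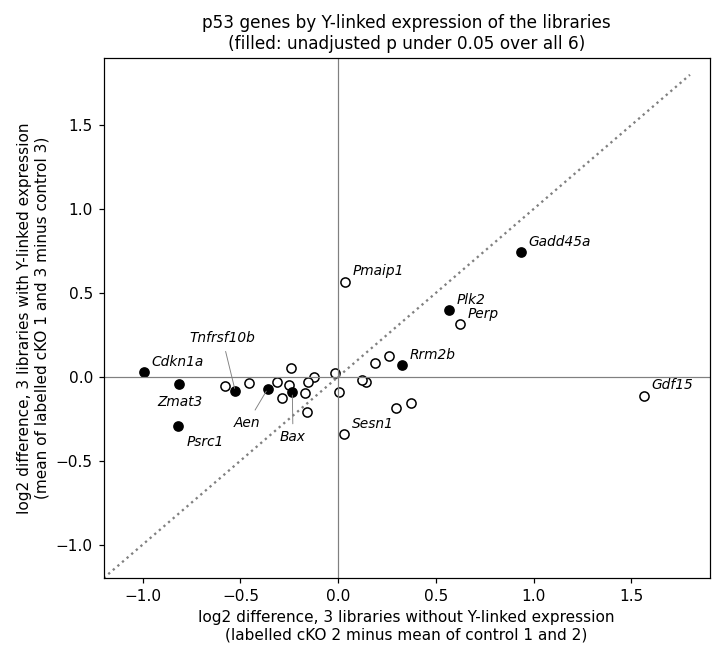
Log2 difference of each p53 gene between libraries labelled cKO and control (log2(FPKM + 1)) within the 3 libraries without (horizontal) and the 3 with Y-linked expression (vertical); filled points had an unadjusted p under 0.05 over all 6 libraries and the dotted line marks equal differences. *Gadd45a* and *Plk2* lie near the line, while *Cdkn1a* and *Zmat3* lie far to the left near a vertical value of 0.

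Other p53 genes gave a similar mix. Of 35 further targets, 33 were tested, and their median log2 fold change was -0.08. At the unadjusted p in limma, 2 had higher (*Sesn2* and *Lif*, 6.06%) and 7 lower values (21.2%). Over all tested genes these shares were 5.37% and 7.76%. *Sesn2* is also among the integrated stress response genes below. Of the 33, 0 had an adjusted p under 0.05 in limma. The smallest p-values belonged to *Zfp365*, a genome stability gene (-0.21), *Lif*, a cytokine (0.28), *Ninj1*, a membrane rupture protein (-0.21), and *Gtse1*, a G2 and S phase protein that binds p53 (-0.71), as log2 fold changes. *Gtse1* was at 8.91, 10.43 and 6.43 FPKM in controls and 7.17, 4.09 and 3.61 FPKM in the libraries labelled cKO. *Ephx1*, epoxide hydrolase, was at 98.99, 95.82 and 72.81 FPKM against 76.3, 66.67 and 54.35 FPKM.

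Among kinases and modifiers of p53, 26 of 28 were tested and their median log2 fold change was -0.03. At the unadjusted p, 1 was higher (*Ppp1r13l*, which encodes the p53 inhibitor iASPP, 0.24) and 2 were lower (*Setd7*, a lysine methyltransferase, -0.18, and *Rrm2*). Of the list, 0 passed adjustment in limma. *Rrm2* was counted on this list although it is the replicative ribonucleotide reductase subunit and not a kinase or modifier of p53. The genes called at the unadjusted p were 11.5% of those tested here, near the 13.1% of all tested genes. *Atm* ranged from 1.42 to 1.76 FPKM and *Atr* from 2.71 to 3.22 FPKM over the 6 libraries. *Cdkn2a*, whose ARF product inhibits MDM2, was at 43.72, 55.19 and 33.7 FPKM in controls and 49.36, 42.66 and 33.07 FPKM in the libraries labelled cKO (log2 fold change -0.07). The relatives *Trp63* and *Trp73* did not pass the filter, with *Trp73* listed at 0 in 5 of 6 libraries.

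Of 15 tested genes for caspases, their inhibitors and the BCL2 family, 1 was higher and 2 were lower at the unadjusted p, and 0 passed adjustment. The genes called at the unadjusted p were 20% of the 15, beside 13.1% of all tested genes. *Diablo*, which frees caspases from their inhibitors, was at 16.42, 13.71 and 15.3 FPKM in controls and 17.61, 18.99 and 18.96 FPKM in the libraries labelled cKO (log2 fold change 0.28). *Cycs*, cytochrome c, had a log2 fold change of -0.25 and *Birc5*, survivin, which also serves in mitosis, one of -0.67.

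**Figure D5:**
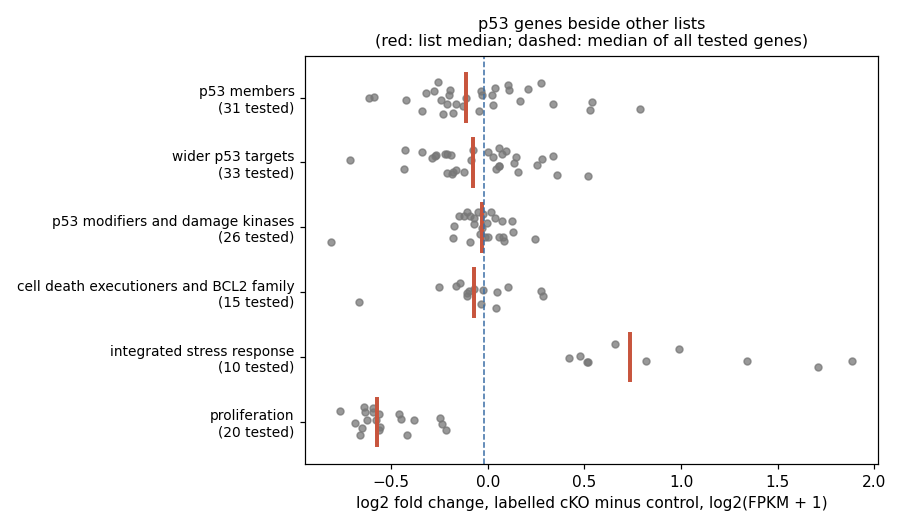
Log2 fold changes (labelled cKO minus control, log2(FPKM + 1)) of the tested genes of 6 lists, with the list median in red and the median of all tested genes dashed. The p53 members spread from -0.62 to 0.79 around a median of -0.11, integrated stress response genes all lie above 0 and proliferation genes all lie below 0.

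Genes of the integrated stress response and of proliferation were set beside the members, because some p53 targets also respond to ATF4 and CHOP, and *Psrc1* and *Gtse1* are mitotic genes. All 10 stress response genes had higher values in the libraries labelled cKO at the unadjusted p, beside 5.37% of all tested genes. Their median log2 fold change was 0.74, and 0 passed adjustment in limma. *Atf4* was at 175.08, 171.34 and 186.85 FPKM in controls and 200.41, 279.7 and 270.92 FPKM in the libraries labelled cKO, and *Ddit3*, encoding CHOP, at 24.77, 22.52 and 34.83 FPKM against 36.78, 135.9 and 145.06 FPKM. Labelled cKO 2 and 3 were high and labelled cKO 1 was the lowest of its group, as for *Gadd45a*. The smallest p-values of the list belonged to *Trib3* (log2 fold change 1.89), *Asns* (0.66), *Atf4* (0.48) and *Ddit4* (0.42). The summed level of the list was 407.36 to 467.45 FPKM in controls and 520.23, 898.43 and 870.8 FPKM in labelled cKO 1, 2 and 3.

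Of 20 proliferation genes, 17 were lower and 0 higher at the unadjusted p, beside 7.76% and 5.37% of all tested genes. Of the 20, 0 passed adjustment, and the median log2 fold change was -0.57. The summed level of the 20 genes was 325.19, 379.78 and 295.94 FPKM in controls and 298.35, 208.09 and 201.93 FPKM in the libraries labelled cKO. *Cdk1*, the mitotic kinase, was at 12.04, 14.9 and 11.42 FPKM against 10.41, 6.78 and 6.66 FPKM. *Bub1* (log2 fold change -0.59), *Mcm5* (-0.65) and *Ccne1* (-0.69) had the other smallest p-values. The part of these responses in the values of the p53 members was not tested.

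Markers of other cells were examined for the same libraries. Macrophage markers summed to 35.72 to 93.52 FPKM in controls and 48.34 to 76.01 FPKM in the libraries labelled cKO, muscle markers to 29.81 to 55.04 and 40.6 to 46.97 FPKM, endothelial markers to 1.84 to 3.87 and 1.84 to 3.4 FPKM, and cartilage markers to 89.59 to 151.87 and 129.51 to 162.84 FPKM. Adipocyte markers summed to 29.1 to 43.3 FPKM in controls and 68.62 to 112.68 FPKM in the libraries labelled cKO. The largest part was *Fabp4*, at 13.91 to 22.45 FPKM in controls and 49.33 to 85.35 FPKM in the libraries labelled cKO. *Adipoq* (at most 0.39 FPKM) and *Plin1* (at most 0.1 FPKM) did not pass the filter. *Plin1* was listed at 0 in control 3 and labelled cKO 2, and *Matn1* of the cartilage list at 0 in 5 of 6 libraries. At the unadjusted p in limma, 3 of 3 tested epithelial, 2 of 3 adipocyte and 2 of 4 cartilage markers had higher values in the libraries labelled cKO. Of 5 macrophage, 4 muscle and 1 endothelial markers, 0 differed. Over all tested genes, 5.37% were higher and 7.76% lower. *Epcam* passed the filter only through the libraries labelled cKO (1.37, 1.58 and 1.21 FPKM, against 0, 0.15 and 0.47 FPKM in controls). Nothing is read from its call. *Krt8* overlapped between the groups, at 5.81 FPKM in control 3 and 5.74 FPKM in labelled cKO 3. The part of these markers in the p53 values was not tested.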

How the data were processed

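Poly(A) RNA of 6 libraries was sequenced as 150 bp paired-end reads, which the authors mapped with HISAT2 (GRCm38 per the submitters' processing notes). The authors deposited FPKM per gene symbol, rounded to 2 decimals, although the table is titled as raw counts. DESeq normalization is named in the methods, but FPKM does not carry it, and the program that computed FPKM is not given in the sources used here. Depth is unknown, and no interval for counting error or floor was computed.

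Rows reaching 1 FPKM in 3 or more libraries were compared as log2(FPKM + 1) with limma 3.58.1 in R 4.3.3 (lmFit, eBayes, two-sided, Benjamini-Hochberg over all 11590 rows). The pseudocount understates changes of low genes. With 3 libraries per group the design allows an exact permutation p no smaller than 0.1, so none was used. The script was tested on simulated data. All members, *Nell2* and, of other lists, genes with the smallest p-values or listed at 0 were named. *Sesn2*, *Ephx1*, *Atm*, *Atr*, *Cdkn2a*, *Ddit3*, *Col1a1*, *Runx2*, *Adipoq*, *Trp63* and *Trp73* were chosen after their values were seen. Members and lists were chosen with earlier results of these data known. The split by Y-linked expression and the order of libraries were added after the values were seen. Positions came from GENCODE M21 and promoters from RefSeq (GRCm38.p6).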

Additional observations from a re-analysis of the deposited data

How the results depend on the processing

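Alternatives were a pseudocount of 0.1, no filter, a filter on the mean, a variance trend, median-ratio scaling, a replicate block, a Y-linked covariate and leaving out 1 library at a time. All 31 members kept their sign under each alternative except *Mdm4*, *Ppm1d*, *Fas*, *Xpc* and *Tigar*. *Ppm1d* turned to 0.00196 with the covariate. With 1 library left out, log2 fold changes ran from -0.0099 to 0.069 for *Mdm4*, from -0.068 to 0.024 for *Ppm1d*, from -0.083 to 0.13 for *Fas*, from -0.033 to 0.11 for *Xpc*, from -0.067 to 0.0026 for *Tigar* and from 0.25 to 0.93 for *Nell2*.

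Genes with an adjusted p under 0.05 numbered 0 to 324 with 1 library left out, and members 0 to 2. Genes at an unadjusted p under 0.05 numbered 852 to 2461. Members at that p numbered 2 to 6 higher and 1 to 11 lower. Members apart numbered 8 to 20, without a share over all genes to set beside them. The 6 lower members became 3 with no filter, 1 with median-ratio scaling and 1 with the Y-linked covariate. Why was not tested. With the replicate block 10 members were lower (6.74% of all genes) and 3 higher (5.9%), with *Perp* gained and *Rrm2b* lost among the higher. Deviations from the group mean correlated at 0.0314, -0.166 and 0.21 between same-numbered libraries 1, 2 and 3, and at -0.272 to 0.275 between unlike numbers. Such correlations over all genes also hold other variation, so they cannot decide whether the numbers pair the samples. The labels name no pairing, and the block result is given only here. FPKM hides depth, so the counting error of low members such as *Tigar* and *Gdf15* is unknown.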
